A study of Mus musculus with 3 samples.

Results

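The genes that cut Notch receptors at the cell surface and in the membrane were followed across 3 sorted populations of CD11b+ dendritic cells from the mouse spleen. They comprise 5 genes of the gamma-secretase complex (Psen2, Psenen, Ncstn, Aph1a and Aph1b) and the 2 sheddase genes Adam10 and Adam17. A member was any probe set whose only annotated gene symbol was one of these 7 names, which gave 9 probe sets for 7 genes, out of 35556 probe sets and 19938 named genes in all. Affymetrix Mouse Gene ST arrays, whose probe sets sample each transcript along its length, gave the log2 expression values used here. The study asks what the Notch partner RBPJ does for these cells.

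Each group has 1 array. The array labelled RBPJ-null holds Esam(lo) GFP(hi) cells of RBPJflox/flox CD11c-Cre Cx3cr1-GFP mice, in which Cre driven by the CD11c promoter acts on the floxed Rbpj gene in CD11c+ cells. The control Esam(hi) array holds Esam(hi) GFP(lo) cells, and the control Esam(lo) array Esam(lo) GFP(hi) cells, both from Cre-negative RBPJflox/flox littermates. All 3 groups carried the floxed Rbpj alleles and the GFP reporter in Cx3cr1, and all cells were sorted as CD11c(hi) CD11b+ after lymphoid and erythroid cells had been depleted on magnetic columns. Each array is a pool of spleens from 2 to 3 mice, and no age is given in the labels. Since no group has a second array, no difference below could be tested, and how far another pool of mice would differ is not known. Because each array reads bulk RNA, fewer cells of a type and less RNA per cell cannot be told apart.

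Notch receptors are turned on by a series of cuts. After a ligand pulls on the receptor, Adam10, a membrane-anchored metalloprotease, clips off its outer part; the related Adam17 can cut Notch too, but is best known for releasing tumour necrosis factor and other surface proteins. The stub left in the membrane is then cut by gamma-secretase, an assembly of a catalytic presenilin, the docking subunit nicastrin (Ncstn), the scaffold Aph1 and the small activator Pen-2 (Psenen), and the freed intracellular part enters the nucleus and binds RBPJ. In the mouse spleen, Notch2 signalling is required for the Esam(hi) CD11b+ dendritic cells.

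A gene was counted as higher or lower when the arrays were at least 2-fold apart and the brighter array lay above background. As background served the level below which 95% of 1194 smell and pheromone receptor genes fell on an array, at 6.87 on the labelled RBPJ-null array, 7.17 on the control Esam(hi) array and 6.76 on the control Esam(lo) array (log2 values). All 7 members lay above background on all 3 arrays. The arrays do not share one distribution: 9108 genes were above background on the labelled RBPJ-null array, 8175 on the control Esam(hi) array and 9537 on the control Esam(lo) array. The median gene tested was 0.31 higher on the labelled RBPJ-null array than in control Esam(hi) cells, and the median difference of control Esam(hi) from control Esam(lo) was -0.32 (both on the log2 scale), so differences are also given relative to the trend of all genes on mean level. Rbpj itself had 10.04 on the labelled RBPJ-null array and 9.85 on both control arrays at probe set 10521913, and was below background on all 3 arrays at probe set 10521911. Whether these probes read exons that Cre removes is unknown, so Rbpj does not check the label. Dtx1, a Notch target chosen after its values were seen, had 8.56 on the labelled RBPJ-null array, 11.25 on the control Esam(hi) array and 9.55 on the control Esam(lo) array.

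The RNA of Esam and Cx3cr1 followed the gates. Esam had 6.12 on the labelled RBPJ-null array, 7.79 on the control Esam(hi) array and 6.57 on the control Esam(lo) array, and only the control Esam(hi) value is above background. Cx3cr1, the gene that carries the reporter, had 9.58 on the labelled RBPJ-null array, 8.32 on the control Esam(hi) array and 9.58 on the control Esam(lo) array. Itgam (CD11b) was not level, though all 3 groups were sorted as CD11b+. It had 10.79 on the labelled RBPJ-null array, 9.50 on the control Esam(hi) array and 10.57 on the control Esam(lo) array. Its control Esam(hi) value was 2.11-fold below that of control Esam(lo). The dendritic cell markers Itgax (CD11c), Flt3 and Zbtb46 were above background on all 3 arrays. Markers of other cells did not all move alike, and those of monocytes moved with the Esam gate. Of 7 measured, 7 were above background on the labelled RBPJ-null array, 4 on the control Esam(hi) array and 7 on the control Esam(lo) array. Ccr2, Fcgr4 and Cd14 were at or below background on the control Esam(hi) array. The summed linear level of the 7 monocyte markers was 16738 on the labelled RBPJ-null array, 2004 on the control Esam(hi) array and 17628 on the control Esam(lo) array. The summed level of 7 neutrophil markers was 19369 on the labelled RBPJ-null array, 7783 on the control Esam(hi) array and 17960 on the control Esam(lo) array. Elane of this list ran the other way, with 8.74 on the labelled RBPJ-null array, 8.95 on control Esam(hi) and 8.60 on control Esam(lo). Of 8 red pulp macrophage markers, 7 were above background on each Esam(lo) array and 5 on the control Esam(hi) array. Cd163 was at or below background on all 3 arrays, and Spic and C1qa on the control Esam(hi) array only. C1qb had 9.06 on the labelled RBPJ-null array, 7.42 on the control Esam(hi) array and 9.06 on the control Esam(lo) array. The summed level of the 8 macrophage markers was 3208 on the labelled RBPJ-null array, 2281 on the control Esam(hi) array and 3255 on the control Esam(lo) array. Of 4 B cell markers, Cd79a, Ms4a1 and Pax5 were at or below background on all 3 arrays, while Cd79b had 9.29 on the labelled RBPJ-null array, 8.20 on the control Esam(hi) array and 9.12 on the control Esam(lo) array. Of 4 T cell markers, Cd3g and Cd3d were at or below background and Cd3e and Cd5 above it on all 3 arrays, with a summed level of 725 on the labelled RBPJ-null array, 733 on the control Esam(hi) array and 724 on the control Esam(lo) array. Of 4 plasmacytoid dendritic cell markers, Siglech was at or below background and Bst2, Ccr9 and Tcf4 above it on all 3 arrays. Tcf4 had 9.62 on the labelled RBPJ-null array, 8.34 on the control Esam(hi) array and 9.55 on the control Esam(lo) array. Of the NK cell markers, Klrb1c and Ncr1 were at or below background and Nkg7 above it on all 3 arrays. Alas2 of erythroid cells and Ppbp and Pf4 of platelets were at or below background on all 3 arrays, and the platelet gene Itga2b was above it on the control Esam(hi) array only. The part of RNA from other cell types in the differences of the cleavage genes was not tested.

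The promoters of these genes were read from RefSeq (GRCm38.p6), where all 7 members matched and gave 9 windows of 300 bases, 250 before to 50 after a transcript start. Because RBPJ is the factor whose gene is floxed, the windows were searched on both strands for its core motif GTGGGAA, which reads TTCCCAC on the other strand. It was found in 2 of 7 members, Aph1a and Psen2, against 6.96% of 17491 protein-coding genes and 6.38% of all 32851 windows. In Aph1a it spans the start, at positions -4 to 3, and at the inner of the 2 Psen2 starts it lies on the opposite strand at -89 to -83; the outer Psen2 start has none. The motif GAGGAAGT of Spi1, a master regulator of myeloid cells, searched on both strands, was in 0 of 7 members and in 3.64% of coding genes. The 5 sequences below are the 2 promoters with the RBPJ motif, in capitals, and those of the 3 members that differed at least 2-fold between arrays (Psenen at its outer start). Each runs 5′ to 3′ along its gene and covers the 100 bases before the start and the first 20 bases from it. A match is a description of letters and does not show binding.
Aph1a (chr3:95893821-95893940, plus strand): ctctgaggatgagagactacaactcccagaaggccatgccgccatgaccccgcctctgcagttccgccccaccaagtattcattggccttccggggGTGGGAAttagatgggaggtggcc
Psen2 (chr1:180245931-180246050, minus strand): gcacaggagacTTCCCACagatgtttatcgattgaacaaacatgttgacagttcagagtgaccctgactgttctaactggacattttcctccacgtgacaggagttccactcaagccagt
Psenen (chr7:30563608-30563727, minus strand): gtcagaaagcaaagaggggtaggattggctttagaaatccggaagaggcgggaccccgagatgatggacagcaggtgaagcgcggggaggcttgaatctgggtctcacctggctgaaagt
Adam10 (chr9:70678882-70679001, plus strand): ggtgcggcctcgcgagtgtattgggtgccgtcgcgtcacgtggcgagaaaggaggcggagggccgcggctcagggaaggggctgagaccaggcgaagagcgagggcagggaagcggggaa
Adam17 (chr12:21373613-21373732, minus strand): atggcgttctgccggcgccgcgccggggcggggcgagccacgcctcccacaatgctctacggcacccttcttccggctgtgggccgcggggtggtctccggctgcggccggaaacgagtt
The 2 genes with the motif were not among those 3. GC content over the 300 bases was 47.7% at the inner Psen2 start, 58.0% at Aph1a, 58.3% at Psenen, 73.3% at Adam10 and 70.0% at Adam17.

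Psenen, Adam10 and Adam17 were at least 2-fold higher on the labelled RBPJ-null array than in control Esam(hi) cells, and at least 2-fold lower in control Esam(hi) cells than in control Esam(lo) cells. Ncstn and Aph1a differed the same way by less, while Psen2 and Aph1b lay within 0.04 over the 3 arrays on the deposited log2 values. Between the 2 Esam(lo) arrays none of the 7 genes reached 2-fold, and the largest difference was 0.19 on the log2 scale, at Adam17. The plot of the 9 probe sets shows these levels by array.

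**Figure D1:**
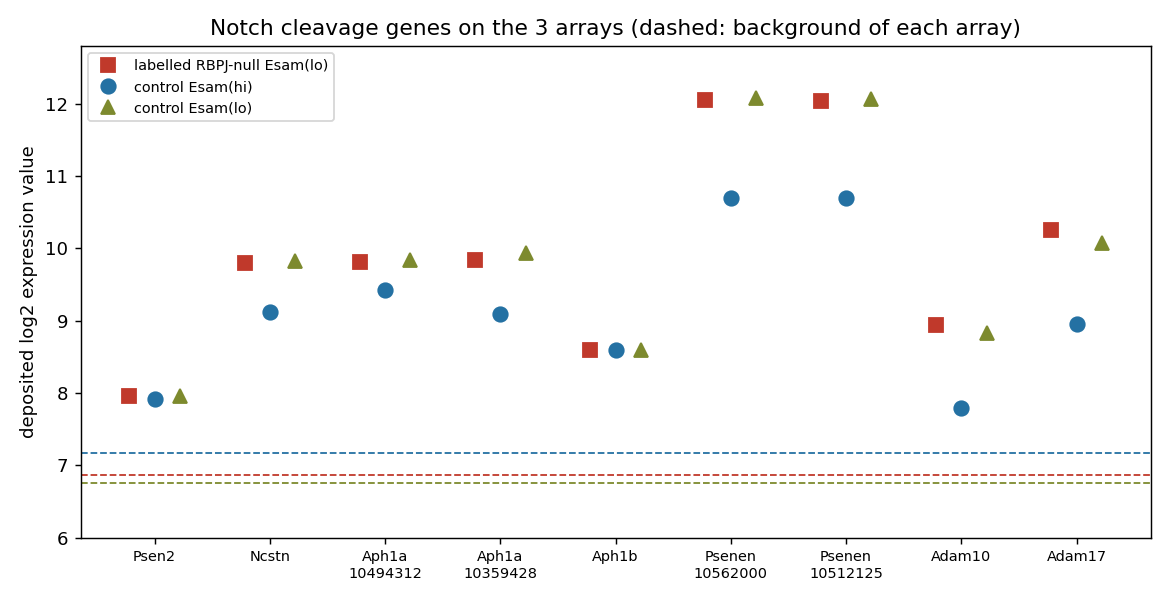
Deposited log2 expression values of the 9 probe sets of the 7 Notch cleavage genes, 1 point per array (square, labelled RBPJ-null Esam(lo); circle, control Esam(hi); triangle, control Esam(lo)), with each array's background as a dashed line in its colour. The control Esam(hi) point lies below both Esam(lo) points at Psenen, Adam10, Adam17, Ncstn and Aph1a, and all 3 points coincide at Aph1b.

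Adam10, the protease that makes the first cut in ligand-bound Notch, had 8.94 on the labelled RBPJ-null array, 7.79 on the control Esam(hi) array and 8.83 on the control Esam(lo) array. Both Esam(lo) arrays were high and lay 0.11 apart. The labelled RBPJ-null value was 1.15 above the control Esam(hi) value on the log2 scale, a 2.22-fold difference. The control Esam(hi) value was 1.04 below the control Esam(lo) value (log2 difference -1.04), or 2.06-fold lower. Of all genes tested between the control arrays, 10.5% lay as far or farther below.

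Adam17, the protease that releases tumour necrosis factor, had 10.26 on the labelled RBPJ-null array, 8.95 on the control Esam(hi) array and 10.07 on the control Esam(lo) array. Its order matched that of Adam10, with the labelled RBPJ-null array highest. The labelled RBPJ-null value was 0.19 above control Esam(lo) and 1.30 above control Esam(hi) on the log2 scale, the second being 2.47-fold. The control Esam(hi) value was 2.17-fold lower than that of control Esam(lo), with a log2 difference of -1.12. Of all genes tested between the control arrays, 8.61% lay as far or farther below. Between the Esam(lo) arrays 6.55% of 9348 genes lay as far or farther above.

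Psenen encodes Pen-2, the small subunit that joins the complex last and activates its presenilin. It had 12.05 on the labelled RBPJ-null array, 10.70 on the control Esam(hi) array and 12.08 on the control Esam(lo) array at probe set 10562000. The labelled RBPJ-null value was 2.56-fold higher than the control Esam(hi) value, and the control Esam(hi) value was 2.61-fold lower than the control Esam(lo) value (log2 differences 1.35 and -1.38). Both Esam(lo) arrays were high and lay 0.03 apart. A second probe set, 10512125, had 12.04 on the labelled RBPJ-null array, 10.69 on the control Esam(hi) array and 12.06 on the control Esam(lo) array. RefSeq lists a Psenen pseudogene (Psenen-ps) on chromosome 4, so how much either probe set reads of that copy is uncertain. Psenen had the largest difference of the 7 members in both comparisons with control Esam(hi) cells, and 3.65% of the genes tested between the control arrays lay as far or farther below.

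Ncstn encodes nicastrin, which holds the substrate's free end. Its value was 9.80 on the labelled RBPJ-null array, 9.12 on the control Esam(hi) array and 9.83 on the control Esam(lo) array. The control Esam(hi) value was the low one, 1.63-fold below control Esam(lo) and short of 2-fold. The labelled RBPJ-null value was 1.59-fold above that of control Esam(hi) and 0.03 below that of control Esam(lo) on the log2 scale.

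Aph1a, a scaffold subunit, was read by 2 probe sets that agreed on the order of the arrays but not on the size of the difference. At probe set 10494312 it had 9.81 on the labelled RBPJ-null array, 9.42 on the control Esam(hi) array and 9.84 on the control Esam(lo) array. At probe set 10359428 it had 9.84 on the labelled RBPJ-null array, 9.10 on the control Esam(hi) array and 9.93 on the control Esam(lo) array. The log2 difference of control Esam(hi) from control Esam(lo) was -0.42 at the first and -0.84 at the second, and neither reached 2-fold.

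Psen2, a presenilin that serves as the catalytic subunit, had 7.96 on the labelled RBPJ-null array, 7.93 on the control Esam(hi) array and 7.96 on the control Esam(lo) array. Aph1b, an alternative to Aph1a, had 8.59 on all 3 arrays, to the last deposited digit. Aph1c, a close mouse relative of Aph1b that is also on chromosome 9, was likewise equal on all 3 arrays, at 9.87. Probes may not tell these 2 copies apart, so both values are uncertain. Exact ties are frequent in these values and are no proof of equal expression: of 9692 genes above background on at least 1 array, 1150 (11.9%) were tied on all 3 arrays and 41.1% between the Esam(lo) arrays.

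Counted by the 2-fold rule, 0 of 7 members were higher and 0 of 7 lower on the labelled RBPJ-null array than in control Esam(lo) cells, against 0.0749% and 0.193% of 9348 genes tested. On the labelled RBPJ-null array, compared with control Esam(hi), 3 of 7 were higher (Psenen, Adam10 and Adam17) and 0 lower, against 12.9% and 1.18% of 9312 genes. For control Esam(hi) compared with control Esam(lo), 0 of 7 were higher and the same 3 genes were lower, against 0.816% and 11.6% of 9196 genes. The median member difference was 0 for the labelled RBPJ-null array over control Esam(lo), 0.67 over control Esam(hi), and -0.71 for control Esam(hi) over control Esam(lo), where the medians of all genes tested were 0, 0.31 and -0.32. Both comparisons with 3 such members use the control Esam(hi) array, so the second list of 3 genes adds no independent evidence to the first. All 7 members entered each comparison.

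**Figure D2:**
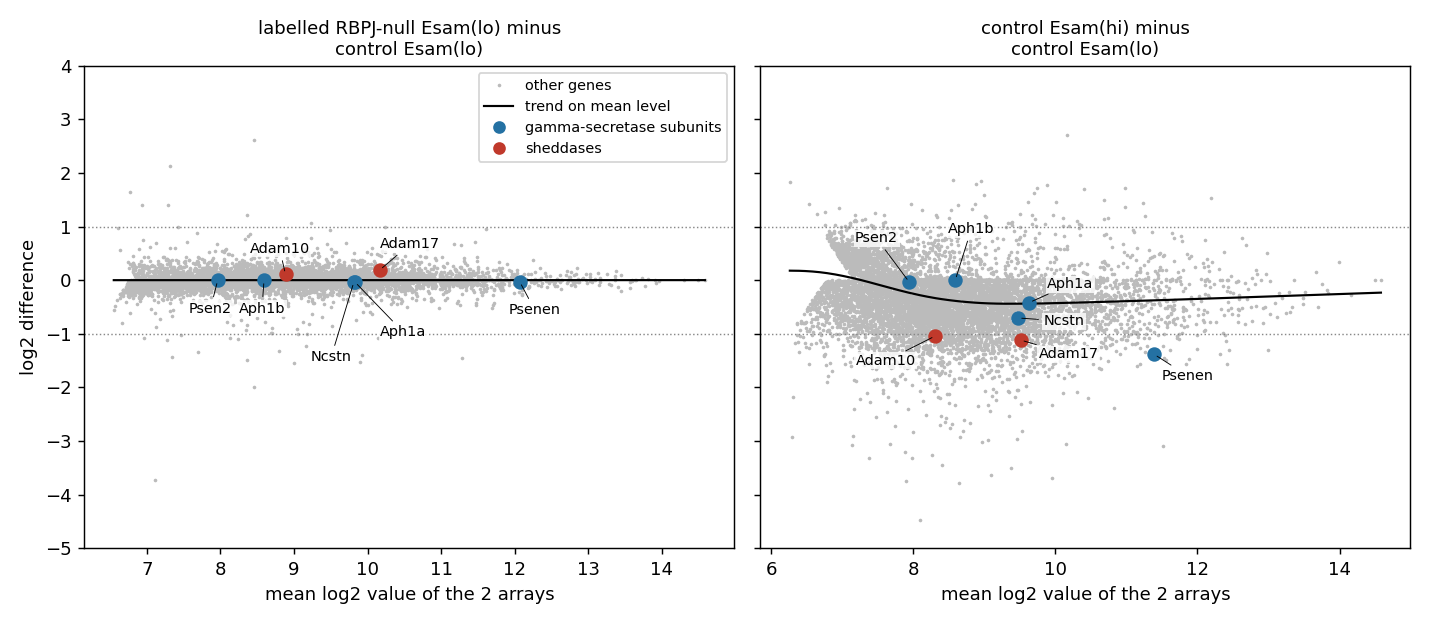
Log2 difference (vertical axis) against mean log2 value of the 2 arrays (horizontal axis) for every gene tested, with the labelled RBPJ-null Esam(lo) array minus control Esam(lo) on the left and control Esam(hi) minus control Esam(lo) on the right; dotted lines mark 2-fold and the black line is the trend of all genes on mean level. On the left all 7 members lie within 0.19 of 0; on the right Psenen, Adam10 and Adam17 lie below the lower dotted line and Aph1a lies on the trend.

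On a scale where 0 is the control Esam(lo) value and 1 the control Esam(hi) value, the labelled RBPJ-null value stood at 0.02 for Psenen, 0.05 for Ncstn and 0.08 for Aph1a. It stood outside the span of the controls, on the far side of control Esam(lo), at -0.10 for Adam10 and -0.17 for Adam17. Thus 5 members whose control values differed by over 0.1 had labelled RBPJ-null values close to the control Esam(lo) end. The 2 Esam(lo) arrays were close over all genes too. Of 9348 genes tested, 0.0749% were at least 2-fold higher and 0.193% lower on the labelled RBPJ-null array, with a median difference of 0. Positions near 0 therefore do not set the members apart. Each position uses 1 array at each point and has no error.

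Part of the difference between the gates was shared with other genes of like level. After the trend of all genes was removed, Psenen was 2.01-fold lower on the control Esam(hi) array, and the log2 difference from control Esam(lo) was -0.71 for Adam10, -0.68 for Adam17 and -0.27 for Ncstn. The same adjustment left 0.02 for Aph1a, 0.20 for Psen2 and 0.39 for Aph1b, so Aph1a and Psen2 changed sign and the tie of Aph1b became a positive value. Psenen alone then kept a 2-fold difference, and for the labelled RBPJ-null array over control Esam(hi) it had 1.96-fold, just short of it. Adam10 and Adam17 kept their direction at 0.79 and 0.86 in that comparison, and Ncstn at 0.22. With quantile normalization, the difference of control Esam(hi) from control Esam(lo) was -1.13 for Psenen, -0.85 for Adam10 and -0.80 for Adam17. Psenen, Adam10 and Adam17, picked for the largest deposited differences, lay farther toward the Esam(lo) arrays than the other 4 under each of these scalings. Between the control arrays, the trend removed ran only from -0.24 at Psen2 to -0.44 at Ncstn over the members. Staying apart from the other 4 was thus largely set in advance and adds no evidence that the members behave unequally.

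**Figure D3:**
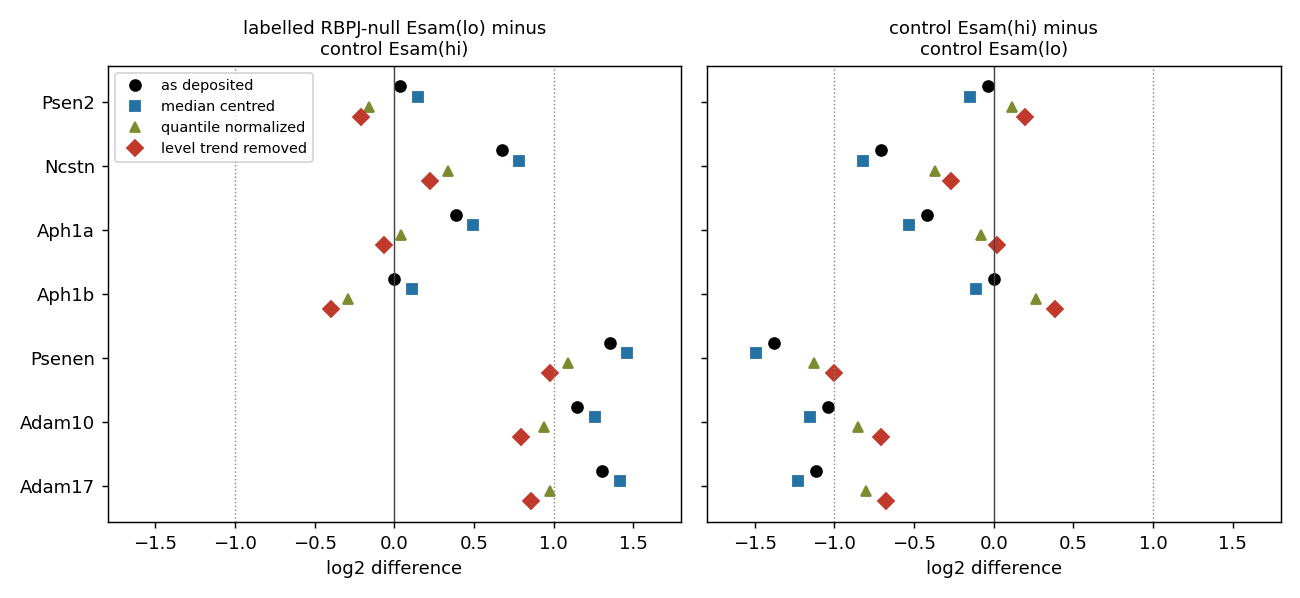
Log2 difference of each member under 4 scalings (circle, as deposited; square, each array centred on its median; triangle, quantile normalized; diamond, trend on mean level removed), with the labelled RBPJ-null Esam(lo) array minus control Esam(hi) on the left and control Esam(hi) minus control Esam(lo) on the right; dotted lines mark 2-fold. Psenen, Adam10 and Adam17 keep their side of 0 under all 4, while Aph1b takes both signs and Psen2 and Aph1a change sign in at least 1 scaling.

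Of 9 genes listed as partners of gamma-secretase, all were above background. On the control Esam(hi) array 5 were at least 2-fold lower than on that of control Esam(lo) and 0 higher. Of all genes tested, 11.6% were lower and 0.816% higher by this rule. The median of the 9 was -1.04 against -0.32 for all genes tested. With the trend removed 2 stayed 2-fold lower, Tmed10 and Ifitm3, against 5.30% of all genes tested. Tmed10, a cargo receptor of the early secretory pathway that binds the complex, had 10.77 on the labelled RBPJ-null array, 9.19 on the control Esam(hi) array and 10.75 on the control Esam(lo) array. Ifitm3, an interferon-induced membrane protein reported to bind gamma-secretase, had 12.60 on the labelled RBPJ-null array, 11.06 on the control Esam(hi) array and 12.62 on the control Esam(lo) array. Both were low in control Esam(hi) cells alone. Tmed2, the partner of Tmed10 in the same cargo family, had 10.96 on the labelled RBPJ-null array, 9.52 on the control Esam(hi) array and 10.76 on the control Esam(lo) array. Arrb1, a beta-arrestin, had 9.77 on the labelled RBPJ-null array, 8.47 on the control Esam(hi) array and 9.76 on the control Esam(lo) array. The fifth was Rer1, a sorting receptor that retains unassembled subunits, with a log2 difference of -1.04. Against control Esam(hi), the same 5 genes were at least 2-fold higher on the labelled RBPJ-null array, where 12.9% of all genes tested were. Against control Esam(lo) 0 of 9 differed 2-fold, where only 0.0749% of all genes tested were higher and 0.193% lower.

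The tetraspanins of the TspanC8 group carry Adam10 out of the endoplasmic reticulum, and 4 of 6 were above background. None differed 2-fold between the control arrays, where 11.6% of all genes tested were lower and 0.816% higher. The median of the 4 was -0.63 against -0.32 for all genes tested. Tspan14 had 10.47 on the labelled RBPJ-null array, 9.66 on the control Esam(hi) array and 10.61 on the control Esam(lo) array. Tspan5 had 7.90 on the labelled RBPJ-null array, was below background on the control Esam(hi) array and had 7.81 on the control Esam(lo) array, so it was at least 1.66-fold higher on the labelled RBPJ-null array than in control Esam(hi) cells. Its measured values put it among the genes counted in that comparison, the only 1 of the 4, against 12.9% of all genes tested.

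The partners of Adam17 showed smaller differences than Adam17. Of 3 genes of the iRhom group, which escorts Adam17 to the surface, 2 were above background and none differed 2-fold in any comparison. Of all genes tested, 11.6% were lower and 0.816% higher on control Esam(hi) than on control Esam(lo). On the labelled RBPJ-null array 12.9% were higher and 1.18% lower than in control Esam(hi), and 0.0749% and 0.193% than in control Esam(lo). At these shares the count of 0 does not set the 2 genes apart. Frmd8, which steadies the iRhom complex, had 8.84 on the labelled RBPJ-null array, 8.20 on the control Esam(hi) array and 8.84 on the control Esam(lo) array. Rhbdf2 (iRhom2), the form used by immune cells, had 8.15 on the labelled RBPJ-null array, 8.06 on the control Esam(hi) array and 8.33 on the control Esam(lo) array. Furin, a proprotein convertase that trims Notch and the ADAM proteases as they mature, had 9.62 on the labelled RBPJ-null array, 9.09 on the control Esam(hi) array and 9.77 on the control Esam(lo) array; Pcsk7, the other of 2 convertases above background, was tied at 7.73. Of 5 metalloprotease inhibitors, Timp2 alone passed background, on the control Esam(lo) array only, at 6.81.

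Other proteases of the same kinds were not uniformly lower in control Esam(hi) cells. Of 6 further intramembrane proteases above background, 2 were at least 2-fold lower on the control Esam(hi) array than in control Esam(lo) and 0 higher. Of all genes tested, 11.6% were lower and 0.816% higher. The median of these 6 was -0.30 against -0.32 for all genes tested. Sppl2a, which degrades membrane stubs including that of the invariant chain in dendritic cells and B cells, had 10.06 on the labelled RBPJ-null array, 8.77 on the control Esam(hi) array and 9.95 on the control Esam(lo) array. Parl, a mitochondrial rhomboid protease, had 8.81 on the labelled RBPJ-null array, 7.53 on the control Esam(hi) array and 8.80 on the control Esam(lo) array. Of 6 other surface sheddases above background, 1 was lower by the same rule and 0 higher, with a median of -0.24. That gene, the membrane-type metalloprotease Mmp14, had 7.97 on the labelled RBPJ-null array, was below background on the control Esam(hi) array and had 7.97 on the control Esam(lo) array. It was at least 1.75-fold lower on the control Esam(hi) array than in control Esam(lo) cells. Adam8, a protease of myeloid cells, ran the other way, with 10.15 on the labelled RBPJ-null array, 10.48 on the control Esam(hi) array and 9.85 on the control Esam(lo) array.

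Adam19, another membrane metalloprotease, was the only gene of these lists that differed 2-fold between the 2 Esam(lo) arrays. It had 8.54 on the labelled RBPJ-null array, 9.76 on the control Esam(hi) array and 9.77 on the control Esam(lo) array. The labelled RBPJ-null array was low and both control arrays high. Its value there was 2.34-fold lower than in control Esam(lo) cells and 2.32-fold lower than in control Esam(hi) cells. Few genes were 2-fold lower on that array: 0.193% of those tested against control Esam(lo) and 1.18% against control Esam(hi). None of the 7 members was among them, which at these shares does not set the members apart.

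**Figure D4:**
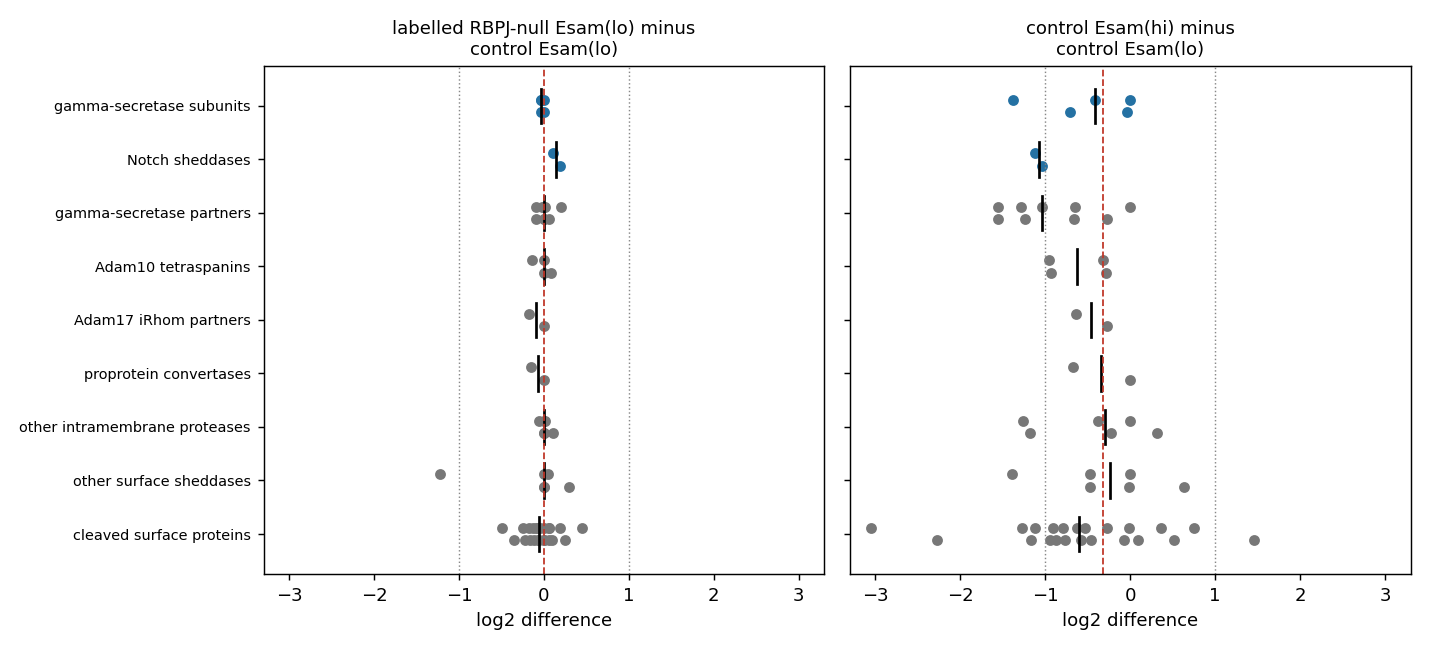
Log2 difference of each gene with the brighter array above background in 9 lists, including the 2 groups of members in blue, with the labelled RBPJ-null Esam(lo) array minus control Esam(lo) on the left and control Esam(hi) minus control Esam(lo) on the right; black bars are list medians, the red dashed line is the median of all genes tested and dotted lines mark 2-fold. On the left only Adam19 lies beyond 2-fold. On the right the list of gamma-secretase partners, with Aph1c among them, has a median of -1.04 against -0.32 for all genes.

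Among surface proteins known to be cut by these enzymes, 22 of 29 genes on the array had their brighter control value above background. On the control Esam(hi) array 5 were at least 2-fold lower than on that of control Esam(lo) and 1 was higher. Of all genes tested, 11.6% were lower and 0.816% higher. The median of the 22 was -0.60 against -0.32 for all genes tested. With the trend removed 2 were lower and 1 higher, against 5.30% and 1.96% of all genes tested. On the labelled RBPJ-null array 7 were at least 2-fold higher and 1 lower than in control Esam(hi) cells. Of all genes tested, 12.9% were higher and 1.18% lower. With the trend removed the counts were 2 and 2, against 6.09% and 2.39% of all genes tested. From control Esam(lo) 0 of 23 differed 2-fold, where only 0.0749% of all genes tested were higher and 0.193% lower. Csf1r, the receptor for macrophage colony-stimulating factor, which also stands in the monocyte list, had 11.31 on the labelled RBPJ-null array, 8.62 on the control Esam(hi) array and 11.67 on the control Esam(lo) array. Lrp1, a scavenger and endocytic receptor, had 10.28 on the labelled RBPJ-null array, 8.50 on the control Esam(hi) array and 10.78 on the control Esam(lo) array. Tnf, the substrate for which Adam17 was named, was the one that was higher, with 9.74 on the labelled RBPJ-null array, 10.74 on the control Esam(hi) array and 9.29 on the control Esam(lo) array. It thus had its highest value where Adam17 had its lowest. Spn (CD43) had 8.62 on the labelled RBPJ-null array, 7.53 on the control Esam(hi) array and 8.80 on the control Esam(lo) array. Notch2 itself had 11.50 on the labelled RBPJ-null array, 10.87 on the control Esam(hi) array and 11.40 on the control Esam(lo) array, and Notch1 had 8.38 on the labelled RBPJ-null array, 7.76 on the control Esam(hi) array and 8.38 on the control Esam(lo) array. The other Notch receptors ran the other way. Notch3 had 7.01 on the labelled RBPJ-null array, 7.46 on the control Esam(hi) array and 7.10 on the control Esam(lo) array. Notch4 had 6.92 on the labelled RBPJ-null array, 7.79 on the control Esam(hi) array and 7.04 on the control Esam(lo) array. None of these receptors differed 2-fold in any comparison.

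The genes most like each member were those with the smallest gap in both differences from the control Esam(lo) array, over 3 arrays. For Psenen they were Dazap2, Fuca1 and Gm5617, within 0.014 on the log2 scale. For Adam10 they were Ssr3, Elp5 and Tmbim1, and for Adam17 Dbf4, Brcc3 and Cul1, within 0.012. For Ncstn they were Usf2, Pold2 and Xpo7, and for Aph1a Phkg2, Clpx and Arhgap45. For Psen2 they were Prrc2b, Trafd1 and Aebp2. Aph1b shared its flat pattern with 1149 other genes, so no 3 can be singled out.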

How the data were processed

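Total RNA (RNeasy columns, Ambion WT expression kit, biotin labelling, per the labels' protocols) gave 1 array per group. Per probe set and array, the authors deposited 1 log2 value, made with RMA and Affymetrix Expression Console per the submitters' processing notes; no version, and no statement of which arrays were normalized together, was found in these sources.

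Probe sets with 1 gene symbol in the platform annotation were used (21789 of 35556; 1621 had several symbols and 12146 none). Where several probe sets read a gene, the brightest on average was used. Log2 differences, the 2-fold rule, the lowess trend (fraction 0.3, statsmodels 0.14.6) and all alternatives were computed in Python 3.11.15 over all genes. The 2-fold rule, with and without the trend removed, was checked on shifts planted in bright genes of the control Esam(lo) values. The planted shifts were larger than the difference of any member. The check let a gene in when either array was above background, a looser filter than the one behind the counts. Differences near 2-fold under the filter in use were thus not checked. The other alternatives were not checked in this way. Precision is limited by the 3 arrays, and no interval could be given.

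All 7 members were named, with up to 4 genes of each pathway list (largest range over the arrays among genes above background) and the 3 genes nearest each member. Rer1, Aph1c, Notch1, Notch2, Notch3, Notch4, Rbpj, Dtx1 and the marker genes stand outside this rule. The members, lists, motifs and rules were chosen with earlier results of these data known.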

Additional observations from a re-analysis of the deposited data

How the results depend on the processing

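No paired analysis was possible because each group has 1 array. For the same reason no array could be left out. On the labelled RBPJ-null array against control Esam(lo), 0 of 7 members were counted under all 8 alternatives. Against control Esam(hi), the 3 members counted on that array became 0 at 3-fold, 1 (Psenen) after quantile normalization and 0 with the trend on mean level removed. On control Esam(hi) against control Esam(lo), the 3 became 0 at 3-fold, 1 (Psenen) after quantile normalization and 1 (Psenen) with the trend removed. At 1.5-fold both comparisons counted 4, adding Ncstn, and the other 4 alternatives (both filters on dim genes, median centring and the mean over probe sets) kept the same 3 genes. Over all genes, 75 were higher and 1066 lower on control Esam(hi) than on control Esam(lo), against 180 and 487 with the trend removed and 150 and 651 after quantile normalization, so the lower share was 93.4%, 73.0% and 81.3%. For the labelled RBPJ-null array over control Esam(hi), 1203 were higher and 110 lower, against 567 and 223 with the trend removed and 719 and 211 after quantile normalization; the lower share was 8.38%, 28.2% and 22.7%. Median centring gave 1580 and 72 in this comparison, and 47 higher and 1463 lower between the controls. At 1.5-fold the counts were 3014 and 528, and 405 and 2944 between the controls; at 3-fold they were 257 and 20, and 12 and 196. Among members with a deposited difference other than 0, the sign changed in 6 values, of Psen2 and Aph1a. Aph1b, tied as deposited, took both signs: for the labelled RBPJ-null array over control Esam(hi) it had 0.11 with median centring, -0.29 after quantile normalization and -0.40 with the trend removed. A higher fold threshold counts fewer genes by construction; for the other changes the cause was not tested.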
